A study of Homo sapiens with 97 samples.

Results

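Chromosome 17 carried 309 of the 3750 NS-seq peaks deposited for human AsiSI-U2OS cells, 569 of 22720 replication timing intervals of U2OS cells and 12 of 129 AsiSI sites that overlapped MRE11 in HCT116 cells. The members were every region that the 6 lists place on this chromosome, 890 of 26599 regions, with positions on the genome build hg19. No measured value was used to choose them. The timing intervals were 206 early, 228 mid-early, 96 mid-late and 39 late, and they met end to end over 81.2 Mb with 0 unlisted bases.

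The study asked how DNA replication is slowed near double-strand breaks, and its 97 samples form 50 groups of U2OS, AsiSI-U2OS and HCT116 cells. The NS-seq list came with an untreated input sample of AsiSI-U2OS osteosarcoma cells, a line that expresses the restriction enzyme AsiSI, and it is named as merged without its libraries. It therefore could not be divided into cells given 4-hydroxytamoxifen (4OHT), which induces the cutting, and control cells. The site list came from MRE11 chromatin immunoprecipitation in HCT116 colorectal carcinoma cells with LIG4 knocked out and with RAD21 fused to an auxin-inducible degron (AID), given 300 nM 4OHT for 4 h. The timing lists came from untreated wild-type U2OS cells, from merged G1 and merged S phase samples. Every comparison of sites with timing or peaks therefore crosses cell lines, and peaks and timing come from AsiSI-U2OS and from wild-type U2OS cells. The lists hold 1 set of regions each, so there was no replicate error and no test between samples.

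Replication of a human chromosome starts at many origins, each of which leaves short nascent strands with an RNA primer at the 5′ end. NS-seq isolates such strands by size and by their resistance to an exonuclease that digests DNA without the primer. Regions of a chromosome copy at their own time in S phase, and gene-rich, open chromatin usually copies before gene-poor, closed chromatin. MRE11 is a nuclease that binds broken DNA ends and begins their resection, and its overlap with an AsiSI site was used in the study to list such sites.

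NS-seq peaks were dense on chromosome 17. It had 3.81 peaks per Mb, while the other nuclear chromosomes together had 1.17, a ratio of 3.26 (95% exact binomial interval 2.89 to 3.66). Among the chromosomes most like it, the density was 2.17 per Mb on chromosome 20, 5.77 on chromosome 19 and 5.81 on chromosome 22. Chromosome 17 thus lay between them, with interval bounds of 1.43 to 2.16 for its ratio to chromosome 20 and of 0.564 to 0.772 for its ratio to chromosome 19. All intervals given here cover counting error only and treat peaks as independent, although neighbouring peaks are not, so they are too narrow. The number of reads behind a peak is unknown, and no peak scored below 10.0, so sequence without a listed peak may still hold origins. The copy number of chromosome 17 in these cells was not analysed here.

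The chromosome was mostly early. Early intervals covered 54.8% of it, mid-early intervals 23.3%, mid-late intervals 11.8% and late intervals 10.1%. On the other nuclear chromosomes these shares were 24.7%, 23.7%, 26.3% and 25.3%. Early intervals covered 44.1% of chromosome 19, 24.9% of chromosome 20 and 51.9% of chromosome 22. Late intervals covered 6.89%, 20.5% and 5.73% in the same order, so chromosome 22 was much like chromosome 17 in early share. The peak count of chromosome 17 was higher than its mixture of classes would give at the densities found elsewhere. At the class densities of the other chromosomes, sequence of this composition would hold 118 peaks, and it held 309, or 2.61 times as many. The same quotient was 4.10 for chromosome 19, 3.84 for chromosome 22 and 1.72 for chromosome 20, and chromosome 17 ranked 3 of 24 chromosomes.

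The classes early, mid-early and mid-late were each denser on chromosome 17 than elsewhere. Early sequence had 3.79 peaks per Mb (169 peaks), against 1.71 on the other chromosomes. Mid-early sequence had 5.40 (102 peaks), against 1.50, and mid-late sequence had 3.46 (33 peaks), against 1.17. Late sequence, with 5 peaks, was the sparse class in both. It had 0.608 peaks per Mb on chromosome 17 and 0.322 elsewhere, and the interval of that ratio (0.607 to 4.47) includes 1. Early over late density was 6.25 on chromosome 17 (interval 2.62 to 19.5) and 5.31 on the others (4.62 to 6.13), so these ratios overlapped widely.

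The densest class was the second to replicate, not the first. Early density was 0.702 times mid-early density on chromosome 17 (interval 0.546 to 0.907). The other chromosomes gave 1.14 (1.05 to 1.24), but that ratio turned when single intervals over 1 Mb were left out. Without them the ratio was 0.596 (0.457 to 0.779) on chromosome 17 and 0.918 (0.842 to 1.00) on the others. The mid-early domains over 1 Mb on the other chromosomes numbered 23 and spanned 149 Mb with 0 peaks. The longest spanned 30101 kb. Whether reads could be mapped across such wide intervals was not analysed here, so their 0 peaks may not mean a lack of origins. Chromosome 20 (0.501, interval 0.307 to 0.800) and chromosome 22 (0.620, interval 0.445 to 0.867) also had ratios below 1, and on chromosome 19 the ratio was 1.03 (0.810 to 1.32). The order on chromosome 17 was less clear without its last 5 Mb, where the ratio was 0.772 (0.569 to 1.06). The difference between chromosomes in this ratio was not tested.

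Peaks crowded into a few 1 Mb windows. Among 82 windows the median was 2.5 peaks, 22 windows (26.8%) held 0 and 8 windows (9.76%) held 10 or more. Over all 3033 windows of the nuclear chromosomes, 67.1% held 0 peaks and 2.47% held 10 or more. Chromosome 17 thus had a smaller share of empty windows and a larger share of crowded ones than the background. Empty windows were rarer still on chromosome 19 (18.3%) and chromosome 22 (5.56%), but more frequent on chromosome 20 (43.75%). Crowded windows were more frequent on chromosome 22 (19.4%) and most frequent on chromosome 19, but less frequent on chromosome 20 (6.25%). The 8 crowded windows of chromosome 17 held 116 peaks, or 37.5% of its total. On the other nuclear chromosomes together, windows with 10 or more peaks were 2.27% of windows and held 33.7% of peaks. Such windows held 59.5% of peaks on chromosome 19, 43.1% on chromosome 20 and 41.5% on chromosome 22. Peaks were thus not more concentrated on chromosome 17 than on these chromosomes by this share.

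Of the 8 crowded windows, 4 stood side by side near the long-arm end. Counted from 77000001, these 4 neighbouring windows held 20, 11, 24 and 19 peaks, and their early shares ran from 38.1% to 54.4%. The window from 79000001 to 80000000, with 24 peaks, was the densest of the chromosome and 55.5% mid-early. The other 4 were scattered, with 11 peaks in the window that starts at 21000001, 11 at 36000001, 10 at 39000001 and 10 at 72000001. Their timing differed: the window at 39000001 was 85.8% early, that at 21000001 was 11.6% early, and that at 72000001 was 58.2% mid-late.

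**Figure D1:**
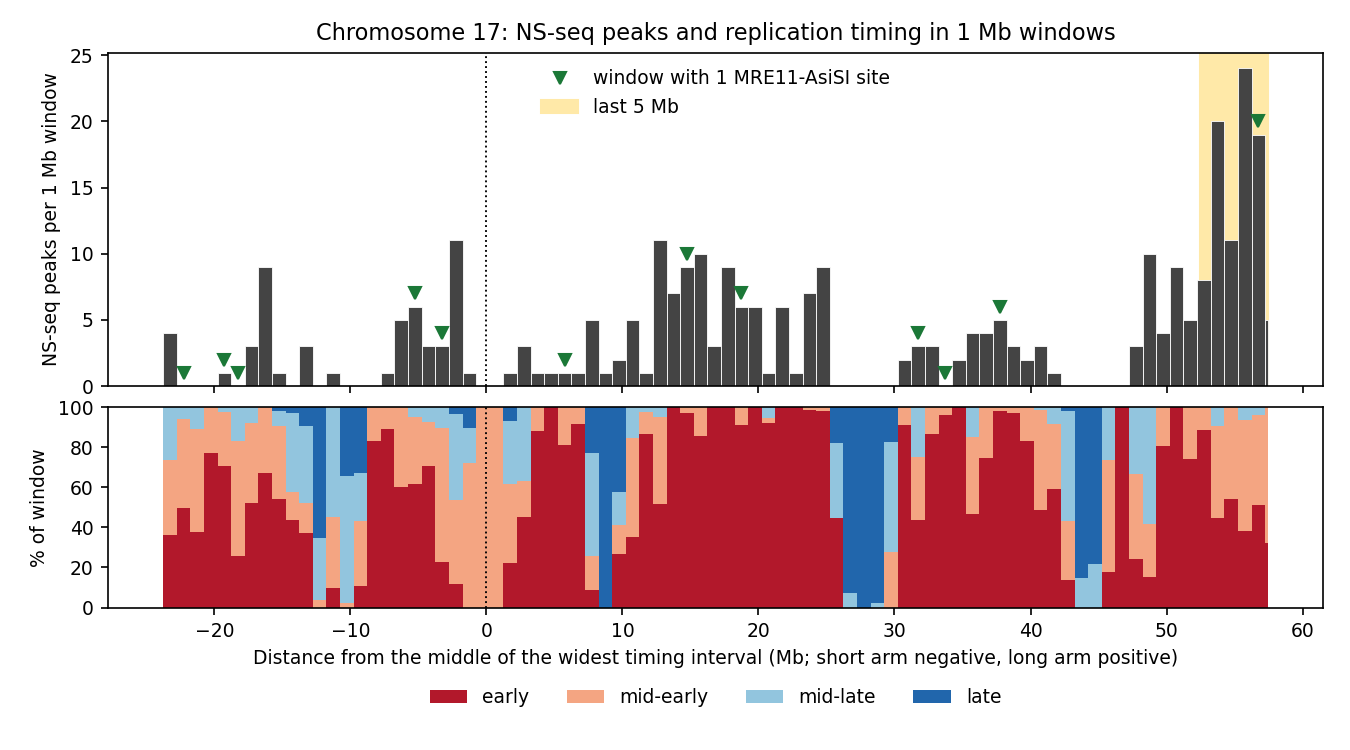
NS-seq peaks per 1 Mb window of chromosome 17 (upper bars) and the share of each window in the 4 timing classes (lower bars, %), against the distance in Mb from the middle of the widest timing interval, short arm to the left and long arm to the right. Triangles mark windows with an MRE11-AsiSI site and the shaded band is the last 5 Mb. The tallest bar holds 24 peaks and lies in that band, while windows without early sequence hold few peaks.

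Windows with little early sequence were mostly empty, but peak number did not climb steadily with the early share. The 14 windows with under 10% early sequence held 8 peaks in all, and 10 of them (71.4%) held 0. On the other chromosomes 80.9% of such windows held 0. The empty windows that start at 23000001 and 24000001 lay wholly in the widest timing interval, which is mid-early. The median was 3 peaks in windows of 10 to 50% early sequence, 3 in those of 50 to 90% and 4 in those of 90% or more. On the other chromosomes the same 4 medians were 0, 0, 1 and 1. Windows that were almost wholly early held at most 9 peaks each, while the windows of 10 to 50% reached 24.

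The last 5 Mb of the long arm stood apart from the rest of the chromosome. From 76195201 to 81195200 there were 84 peaks, 27.2% of the total, at 16.8 per Mb (interval 13.4 to 20.8). The remaining 76.2 Mb held 225 peaks at 2.95 per Mb, so the density was 5.69 times as high at the end (interval 4.37 to 7.34). The early share was nearly the same, 54.1% in the last 5 Mb and 54.9% in the rest. The end held more mid-early sequence (41.9%, against 22.03%) and no late sequence.

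The higher density at the long-arm end was present within classes. Early sequence had 15.5 peaks per Mb in the last 5 Mb and 3.04 in the rest (5.11-fold, interval 3.52 to 7.30). Mid-early sequence had 17.2 and 3.93 (4.37-fold, interval 2.83 to 6.65). Mid-late sequence at the end spanned only 0.198 Mb, with 6 peaks. At the class densities of the rest of the chromosome the last 5 Mb would hold 17.03 peaks, and the 84 found are 4.93 times that.

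The first 5 Mb, at the short-arm end, had nearly the same early share and few peaks. It was 54.3% early, 36.5% mid-early and 9.17% mid-late, and it held 5 peaks, or 1.00 per Mb. The last 5 Mb thus had 16.8 times the density of the first (interval 6.92 to 53.1), although both ends lacked late sequence. The last 5 Mb had 42 peaks in 2.70 Mb of early sequence, whereas none of the 5 peaks of the first lay in its 2.72 Mb of early sequence. The 71.2 Mb between the ends had 3.09 peaks per Mb, and 23.2 peaks would lie in the first 5 Mb at the class densities of the rest of the chromosome.

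The 5 peaks of the short-arm end were spread unevenly. Peaks at 53808 to 54807, 147265 to 148264 and 154321 to 155320 shared 1 mid-late domain of 154 kb. The fourth, at 938231 to 939230, and the fifth, at 4792787 to 4793786, were mid-early. Their scores ran from 11.1 to 15.9, so they were not the weakest peaks of the list. Between the last pair lay 3.85 Mb without a peak, 58.3% of it early.

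**Figure D2:**
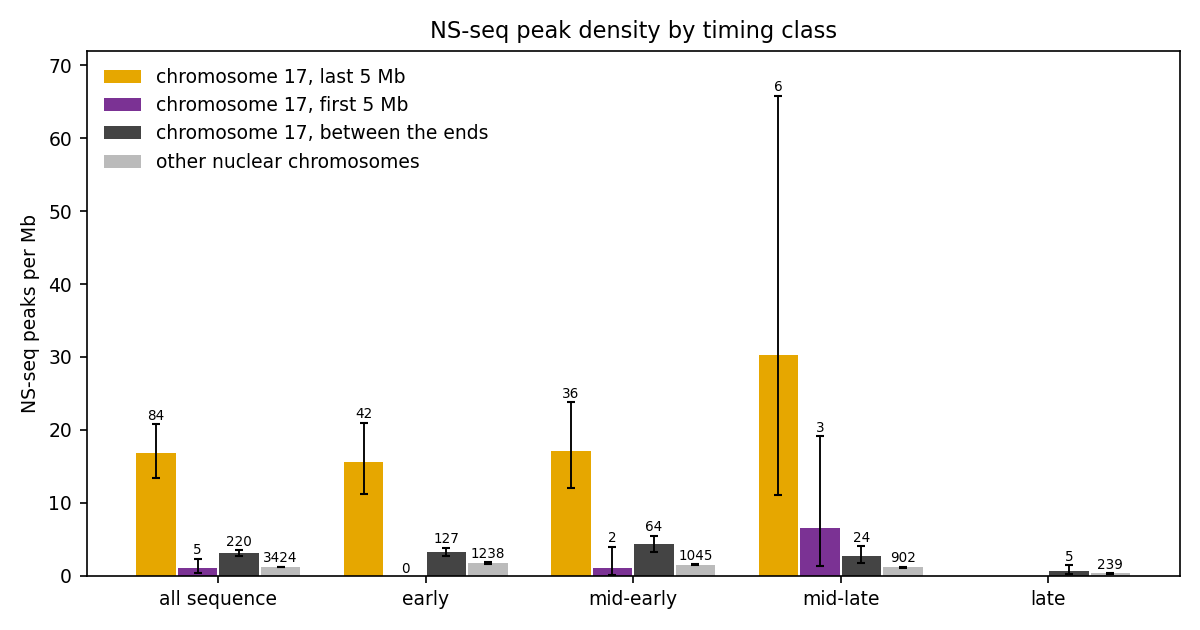
NS-seq peaks per Mb in all sequence and in each timing class, for the last 5 Mb, the first 5 Mb and the stretch between the ends of chromosome 17 and for the other nuclear chromosomes. Bars are densities with 95% exact Poisson intervals for counting error (none drawn at 0), numbers above the bars are peak counts, and no late bar is drawn for the ends because they hold no late sequence. The last 5 Mb stands highest in each class it contains, with 15.5 per Mb in early sequence.

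A dense long-arm end was common among chromosomes. In absolute density the last 5 Mb of chromosome 17 ranked second of 24, behind chromosome 8 with 33.6 peaks per Mb, and the median of the other chromosomes was 5.20. As a ratio to the rest of its own chromosome it ranked 14 of 24, with 5.69 against a median of 6.88 for the others. The rest of chromosome 17 was itself dense, at 2.95 peaks per Mb. Chromosome 19 showed no such difference at its end (5.80 and 5.77 per Mb), and chromosome 22 a small one (8 and 5.45 per Mb).

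**Figure D3:**
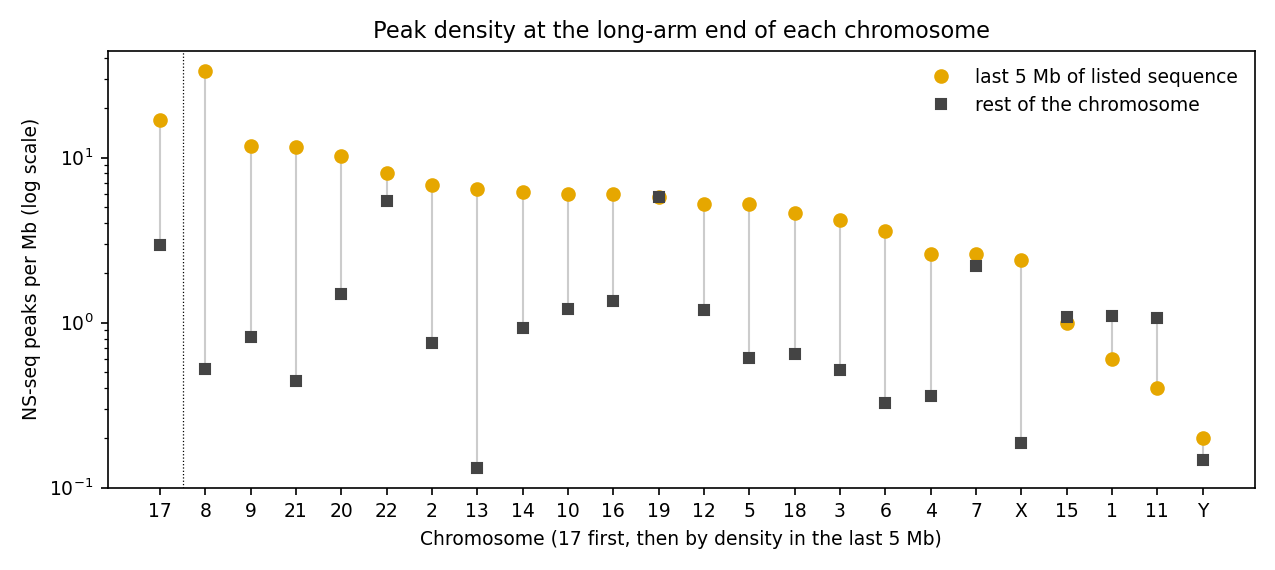
NS-seq peaks per Mb (log scale) in the last 5 Mb of listed sequence (circles) and in the rest (squares) of each nuclear chromosome, with chromosome 17 first and the others by density at the end. Chromosome 17 has 16.8 peaks per Mb at its end and 2.95 in the rest. The circle lies below the square on chromosomes 1, 11 and 15.

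Read in 5 Mb steps inward from the long-arm end, density fell and recovered more than once. The first step held 84 peaks, the next 34 and the step from 66195201 to 71195200 held 0. Steps of 14, 13, 5, 17 and 24 peaks followed, and then a second maximum of 44 peaks from 36195201 to 41195200. That maximum and the long-arm end differed in timing. The last 5 Mb was 54.1% early and had 16.8 peaks per Mb, while the step with 44 peaks was 90.3% early and had 8.80. The empty step was 33.0% late and 27.5% early, so early timing was not always accompanied by peaks.

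The arms were divided at the middle of the widest timing interval, a mid-early interval from 22277901 to 25229600 (2.95 Mb) without a peak. Whether reads could be mapped across it was not analysed here. The short arm held 52 peaks in 23.8 Mb, or 2.19 per Mb, and the long arm held 257 in 57.4 Mb, or 4.47 per Mb. The ratio was 0.489 (interval 0.356 to 0.661). The long-arm end carried much of this difference, since the ratio was 0.664 (0.477 to 0.910) without the last 5 Mb. Without both ends it was 0.760 (0.538 to 1.05), an interval that includes 1.

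The arms differed most in early sequence. It covered 40.9% of the short arm and 60.6% of the long arm. There were 13 peaks in 9.72 Mb of early short-arm sequence, 1.34 per Mb, and 156 peaks in 34.8 Mb on the long arm, 4.48 per Mb. This early ratio was 0.298 (interval 0.155 to 0.526), and it was 0.377 (0.195 to 0.670) with the last 5 Mb left out. With the first 5 Mb left out as well, the difference was smaller. Early density was then 1.86 per Mb on the short arm and 3.55 on the long arm. On the short arm 53.8% of peaks were mid-early, with 3.37 peaks per Mb there, whereas on the long arm 60.7% of peaks were early.

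Neighbouring peaks lay a median of 58.8 kb apart (quartiles 17.8 and 205 kb, 308 gaps), measured between their edges. The mean gap was 262 kb, far above the median, because 22 gaps exceeded 1 Mb. Such gaps were 7.14% of those on chromosome 17, against 13.3% on the other chromosomes, where the median gap was 91.1 kb. Chromosome 19 had a median of 53.6 kb, chromosome 22 of 73.3 kb and chromosome 20 of 86.3 kb. Gaps under 10 kb made up 19.2% on chromosome 17 and 16.8% on the other chromosomes, so close neighbours were about as frequent.

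Spacing followed density along the chromosome. In the last 5 Mb the median gap was 41.7 kb and the longest 282 kb. In the rest the median was 76.1 kb, the longest gap was 6331 kb and 9.82% of gaps exceeded 1 Mb. The short arm had a median of 92.5 kb and the long arm of 55.4 kb.

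Gaps also differed with the class of the flanking peaks. Gaps between 2 early peaks had a median of 50.4 kb (140 gaps), those between 2 mid-early peaks 42.3 kb (70 gaps) and those between 2 mid-late peaks 16.8 kb (20 gaps). Gaps between peaks of different classes had a median of 116 kb (76 gaps). Peaks of different classes have at least 1 class border between their midpoints by definition. A gap was classed by its 2 flanking peaks, so it can reach across other domains. In mid-late sequence, 2 groups of 4 close peaks weighed on the median. Without the gaps inside those groups it was 35.5 kb (14 gaps).

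**Figure D4:**
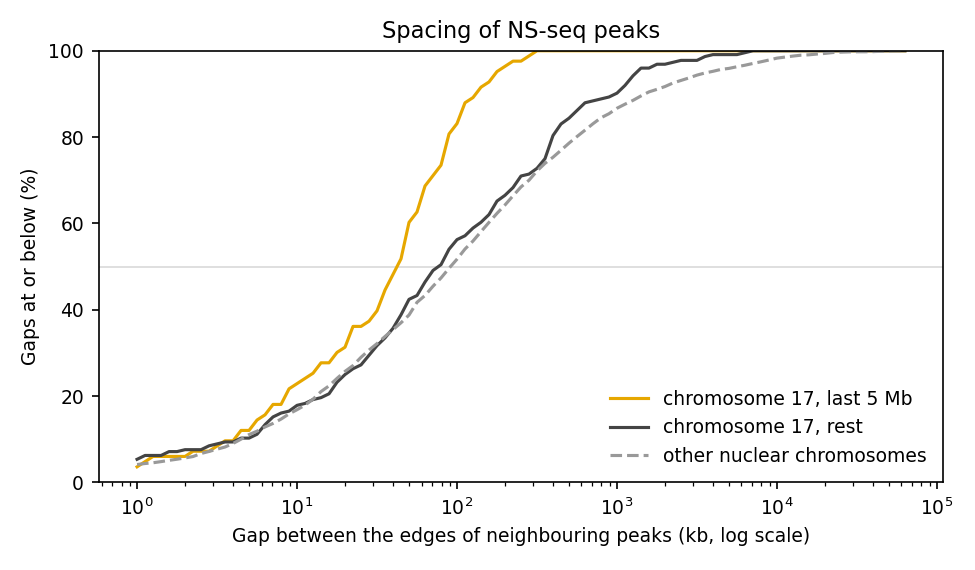
Cumulative share (%) of gaps between neighbouring NS-seq peaks at or below a given length (kb, log scale) in the last 5 Mb of chromosome 17, in the rest of it and on the other nuclear chromosomes. The curve of the last 5 Mb ends at 282 kb, while the other curves reach beyond 1 Mb. The curves lie close together below 10 kb.

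Peaks less than 10 kb apart were joined into zones, a rough stand-in for initiation zones, in which several origins lie near each other. The 309 peaks gave 250 zones. Of these, 45 had more than 1 peak and together held 104 peaks, or 33.7%, against 27.8% on the other chromosomes. The largest had 4 peaks, from 21902224 to 21907518 (5295 bp, highest score 18.2) and from 79764247 to 79784274 (20028 bp, highest score 12.2). Both lay in mid-late sequence, a class with 33 peaks in all. A further 10 zones had 3 peaks each, 7 of them in early and 3 in mid-early sequence. In the last 5 Mb, zones of more than 1 peak held 39.3% of peaks, against 31.6% in the rest.

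The 5 longest peak-free stretches together spanned 22.9 Mb, 28.2% of the chromosome. The longest ran from 65021482 to 71352315 (6.33 Mb) and the next from 48917669 to 54869654 (5.95 Mb), both on the long arm. The second was 54.7% late, but the first was 33.9% early and 26.1% late. On the short arm lay the stretches from 939231 to 4792786 (3.85 Mb) and from 12929670 to 16310500 (3.38 Mb), and the stretch from 22011982 to 25416591 (3.40 Mb) spans the wide mid-early interval. Whether peaks could be called in that interval was not analysed here. Late sequence was thus no requirement for a long stretch without peaks: the stretch from 939231 held none.

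Peak scores, the authors' value with no stated scale, differed little along the chromosome. They ran from 10.0 to 23.2 with a median of 11.6, and the median elsewhere was 11.8. The last 5 Mb had a median of 11.5 and the rest of the chromosome 11.6, so the crowded end did not have higher-scoring peaks in general. The short arm, with the lower density, had a median of 12.2 and the long arm 11.4. By class the medians were 11.5 in early, 11.4 in mid-early, 12.1 in mid-late and 11.8 in late sequence.

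The highest score, 23.2, belonged to a lone mid-early peak at 64794624 to 64795623. The 10 highest included 5 peaks of the last 5 Mb, 4 of them early. Of these, the peak at 79502127 to 79503126 scored 21.7 and that at 80666581 to 80667580 scored 19.2. The peak at 77459039 to 77460038, with 19.02, was mid-late. Next in the last 5 Mb came 78465741 to 78466740 with 18.8 and 78477082 to 78478081 with 17.3, both in 1 early domain of 353 kb. Outside it were the peaks at 21904189 (18.2, in the zone of 4 peaks), 10658633 (18.1), 6096993 (17.5) and 31317623 (17.2), named by their starts. None of these 4 was early.

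The 5 lowest scores lay between 10.0 and 10.04, at the list's lower bound. These peaks start at 72863630, 7194155, 7332873, 74084628 and 77102102, and 2 are early and 3 mid-early. Low-scoring peaks thus came from both arms and from the last 5 Mb as well.

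Early sequence formed 111 domains, runs of neighbouring intervals of the same class, with a median length of 172 kb. There were 153 mid-early domains (median 83.3 kb), 70 mid-late domains (90.9 kb) and 19 late domains (176 kb). Class borders numbered 4.34 per Mb on chromosome 17 and 4.54 on the other chromosomes together, with 5.60 on chromosome 19, 4.71 on chromosome 20 and 5.21 on chromosome 22. The 10 early domains of 1 Mb or more held 42.7% of early sequence, against 30.1% on the other chromosomes together. This share varied between chromosomes of like density, with 19.5% on chromosome 19, 48.7% on chromosome 20 and 21.4% on chromosome 22.

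The 10 long early domains, all on the long arm, held 89 peaks very unevenly. The 3 longest ran from 44976701 to 47986100 (3.01 Mb, 15 peaks), from 42188701 to 44898700 (2.71 Mb, 12 peaks) and from 39752901 to 42099500 (2.35 Mb, 18 peaks). The densest were those from 73826301 to 75345300 (14 peaks, 9.22 per Mb) and from 36941801 to 38615000 (15 peaks, 8.96 per Mb). The domain from 48017801 to 49447600 had 9 peaks, 6.29 per Mb. A second set of long early domains had few peaks: those from 57229101 to 59135900, from 27962501 to 29597300 and from 62053701 to 63458600 had 2 each, and that from 69874301 to 71241700 had 0. Domains of the same class and of like length thus differed from 0 to 9.22 peaks per Mb.

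Late sequence lay in 3 domains of over 1 Mb, which held 60.9% of it. The domains from 50364201 to 52135900 (1.77 Mb) and from 67191001 to 68780800 (1.59 Mb) had 0 peaks, and both lie in the 2 longest peak-free stretches. The domain from 31770801 to 33421300 (1.65 Mb) had 3 of the chromosome's 5 late peaks, starting at 32761836, 33175293 and 33183360. The other late peaks, at 10749604 and 25416592, lay in late domains of 93.3 and 66.9 kb. Scores of the 5 late peaks ran from 11.2 to 12.9, within the range of the other classes.

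The longest domains of the intermediate classes held from 0 to 5 peaks. The widest mid-early domain, which divides the arms, had 0, while the next, from 71241701 to 71667700 and from 34432101 to 34810400, had 3 each. The mid-late domains from 71667701 to 72545700 (878 kb), 13057401 to 13645700 (588 kb) and 31257601 to 31770800 (513 kb) had 2, 0 and 5 peaks. The last of these borders the late domain with 3 peaks. Some short domains held many peaks: a mid-early domain of 161 kb from 72805501 held 7 peaks, and an early domain of 371 kb from 80309701 held 11.

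The 12 MRE11-AsiSI sites, each 8 bp long, lay mostly in sequence that is early in U2OS cells. The counts were 7 early (58.3%, exact Clopper-Pearson interval 27.7 to 84.8%), 4 mid-early, 1 mid-late and 0 late. Over all 129 sites 48.1% were early, so the share on chromosome 17 lay near the background and its interval includes it. It also lay near the early share of the chromosome itself, 54.8%. Within 500 kb on either side, 12 of 12 sites had no late sequence, while this held for 99 of 117 sites (84.6%) elsewhere. Over all sites it held for 111 of 129 (86.0%). Chromosome 17 also has less late sequence, 10.1% against 25.3% on the other nuclear chromosomes. The difference in this share was not tested.

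Few sites had a peak within 10 kb, on chromosome 17 or elsewhere. A peak lay that near to 0 of 12 sites (exact Clopper-Pearson interval 0 to 26.5%) and to 9 of 117 sites (7.69%) on other chromosomes. Over all sites the share was 6.98%, which the interval includes. Within 50 kb of a peak were 4 sites (33.3%, exact Clopper-Pearson interval 9.92 to 65.1%), against a background of 23.3% over all sites, which this interval includes. The nearest peak was a median of 151 kb away (range 21.6 to 780 kb), and 412 kb on the other chromosomes. Peaks were also sparser there, with 1.17 per Mb against 3.81 on chromosome 17.

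The 5 short-arm sites differed in their surroundings. Site 1 (1628453 to 1628460, mid-early) lay 689 kb from a peak, site 2 (4269523 to 4269530, early) 523 kb and site 3 (5390220 to 5390227, mid-early) 596 kb. These 3 sites, in the peak-poor stretch near the short-arm end, had 0 peaks within 500 kb. The opposite held for the other 2: site 4 (18057099 to 18057106), the single mid-late site, lay 21.6 kb from a peak, the shortest distance of the 12, and had 7 peaks within 500 kb. Site 5 (20946300 to 20946307, mid-early) lay 72.9 kb from a peak and had 9 within 500 kb.

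On the long arm 6 of 7 sites were early. Site 6 (29249037 to 29249044) lay 193 kb from a peak and had 2 within 500 kb, in a long early domain with 2 peaks in all. Site 7 (38137472 to 38137479) lay 27.9 kb from a peak, with 14 within 500 kb, and site 8 (42440934 to 42440941) lay 33.7 kb from a peak, with 6. Both were in long early domains, with 8.96 peaks per Mb in that of site 7 and 4.43 in that of site 8. The early density of the long arm was 4.48 per Mb. Site 9 (55939363 to 55939370) had its nearest peak at 164 kb and 5 within 500 kb. Site 10 (57184296 to 57184303) had 96.2% early sequence within 500 kb and 0 peaks there, the nearest at 780 kb. Site 11 (61850855 to 61850862) had its nearest peak at 137 kb and 8 within 500 kb. Site 12 (80250840 to 80250847), mid-early and in the last 5 Mb, lay 37.6 kb from a peak and had 25 within 500 kb, the highest count of the 12.

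**Figure D5:**
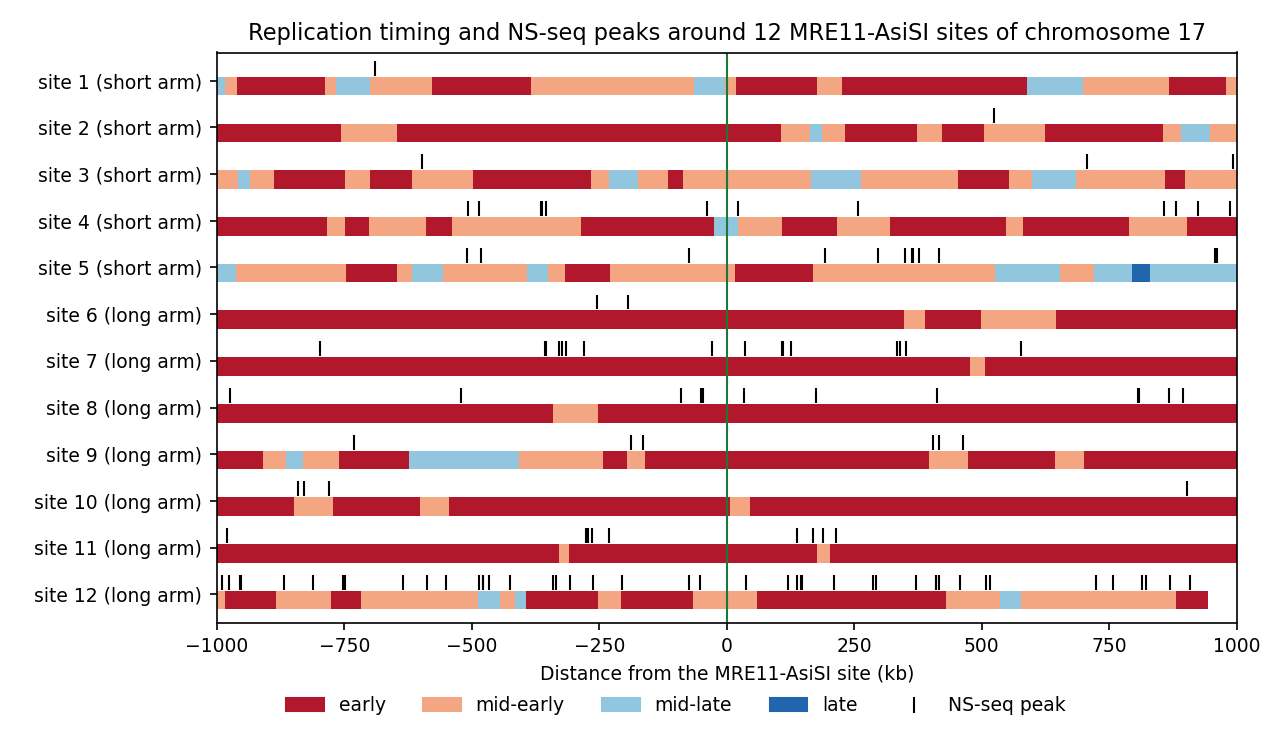
Timing classes (coloured bars) and NS-seq peaks (black ticks) within 1 Mb on each side of the 12 MRE11-AsiSI sites of chromosome 17, numbered from the short-arm end, against the distance from the site in kb. Site 12 lies less than 1 Mb from the end of the listed sequence, so its bar stops early. Sites 1, 2, 3 and 10 have 0 peaks within 500 kb, and site 12 has 25.

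Over the 12 sites together, sequence within 500 kb of a site had 6.33 peaks per Mb (76 peaks in 12 Mb), and the rest of chromosome 17 had 3.37. The ratio was 1.88 (interval 1.43 to 2.45). Surroundings of sites were also earlier, 71.0% against 52.1%. In early sequence alone the ratio was 1.63 (1.14 to 2.30), with 5.52 and 3.39 peaks per Mb, and in mid-early sequence 1.63 (0.987 to 2.61). The ratios in all sequence and in early sequence were lower without site 12, and by how much depended on the sequence left out. Without the surroundings of site 12 the ratio was 1.38 (0.996 to 1.87) in all sequence, 1.13 (0.729 to 1.69) in early and 1.50 (0.870 to 2.48) in mid-early sequence. Leaving out the whole last 5 Mb, which also removes dense sequence away from sites, gave 1.74 (1.25 to 2.39) in all sequence, an interval above 1. That setting gave 1.34 (0.856 to 2.03) in early and 2.26 (1.26 to 3.89) in mid-early sequence. Within 250 kb of a site the ratio in all sequence was 1.40 (0.932 to 2.03).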

How the data were processed

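The 6 region lists were deposited as positions on hg19. Per the submitters' processing notes, the build is hg19 and MACS2 was among the tools, with no version or role. How reads were aligned and filtered, which libraries were merged and how timing classes were divided is not stated in the sources used here. NS-seq peaks carry a score, the authors' deposited value without a stated scale, and all are 1000 bp wide. It served to rank and filter peaks of that list. Read depth is unknown.

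Regions were placed by their midpoint, and densities were counted per Mb of listed sequence on 24 nuclear chromosomes. Same-class intervals that touch were joined into domains, and peaks under 10 kb apart into zones. The arms were divided at the middle of the widest timing interval. Ratios have exact binomial, densities exact Poisson and shares exact Clopper-Pearson intervals at 95%, and no p-value was computed. The placing of peaks and the value of the density ratio were tested on simulated early and late peaks of known density. The simulated densities were well above those of chromosome 17, so a ratio that rests on few late peaks was not checked. The coverage of the intervals was not tested. Python 3.11.15, NumPy 2.4.6, pandas 2.3.3, SciPy 1.17.1 and matplotlib 3.10.9 were used.

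The regions named are windows with 10 or more peaks, the 10 highest-scoring and 5 lowest-scoring peaks, the 5 longest peak-free stretches, the zones with most peaks, the 3 longest domains of each class and those of 1 Mb or more, and every site. The peaks of the first 5 Mb, the late peaks and the short crowded domains were named after their values were seen. Members and rules were chosen with earlier results of these data known. Alternatives varied the peak threshold, zones, wide intervals, short domains, the size of the ends, the densest window, autosomes, joined classes, the measure of spacing and distances to sites. Genes, promoters and sequences at hg19 positions were not analysed here.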

Additional observations from a re-analysis of the deposited data

How the results depend on the processing

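Across 12 results, 60 alternatives were computed, 44 planned and 16 chosen after the data were seen. In 42 the value stayed within its interval, 17 moved and 1 turned in direction. That was the early over mid-early ratio of the other chromosomes, 0.918 without intervals over 1 Mb. With the first and last 5 Mb pooled, the ratio of the ends to the rest was 2.88. Without the last 5 Mb, the short over long arm ratio was 0.664, chromosome 17 had 2.53 times the peak density of the other chromosomes, the early ratio to them was 1.77 and the median spacing was 76.1 kb. Without the first and last 5 Mb, the arm ratio was 0.760. With classes joined in pairs, the early over late ratio was 2.00, and without domains under 100 kb it was 9.95, within its interval. Spacing was 169 kb for peaks at or above the median score and 83.2 kb between zones. The early share was 54.0% without intervals over 1 Mb, 59.4% without domains under 100 kb and 54.8% from 100 kb windows. These were counted as moved, but the interval of the early share treated bases as independent. It ran only from 54.84 to 54.86%, so that label says little for this result. Joining early and mid-early put 91.7% of sites there. A peak lay within 10 kb of 0% and within 250 kb of 66.7% of sites, and peak density within 250 kb of a site was 1.40 times that of the rest. Without the surroundings of site 12 the ratio within 500 kb was 1.38. No paired analysis was possible because each list is a single set of regions without replicates. Limits are the unknown depth, the lower bound of 10.0 on the score and the timing, which comes from other cells than the sites.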

Other observations

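Early domains of different length had different peak densities on chromosome 17. Those of 1 Mb or more had 4.68 peaks per Mb (10 domains), those of 500 to 1000 kb had 1.64 (15 domains), those of 100 to 500 kb had 4.39 (64 domains) and those under 100 kb had 2.96 (22 domains). On the other nuclear chromosomes the densities in the same order were 1.61, 1.70, 1.85 and 1.40. The shorter domains were less dense away from the long-arm end. Among domains that end before the last 5 Mb the densities in this order were 4.68, 1.25, 2.18 and 0 peaks per Mb. A peak lay in 9 of the 10 long domains of chromosome 17 (90%) and in 57.6% of those elsewhere. Single long domains of chromosome 17 ran from 0 to 9.22 peaks per Mb. All 10 lay on the long arm, where early sequence had 4.48 peaks per Mb, against 1.34 on the short arm. Length was not tested apart from arm.

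The edges of its early domains were not denser in peaks than their insides beyond counting error. In the 25 early domains of 500 kb or more, the outer 100 kb at each side had 2.80 peaks per Mb (14 peaks) and the inside had 3.72 (93 peaks), a ratio of 0.752 (95% exact binomial interval 0.396 to 1.33). In 399 such domains of the other chromosomes the edges had 2.08 peaks per Mb and the inside 1.54, a ratio of 1.35 (1.12 to 1.61). The difference between these ratios was not tested. Both comparisons were chosen after the data were seen.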
